A study of Rattus norvegicus and Mus musculus with 9 samples.

Results

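Histone genes were examined on microarrays of embryonic stem (ES) cells from rat and mouse and of fibroblasts from rat embryos. They were chosen by name alone: a probe set (the group of probes that reports 1 transcript) had to carry a single gene symbol beginning with Hist1 to Hist4, H1f, H2a, H2b, H3 or H4, and the gene had to encode a histone. This gave 32 of 14506 rat genes and 44 of 19938 mouse genes. A mouse pseudogene with such a symbol, H2bu1-ps, was left out. Rat ES cells and rat fibroblasts were both of strain DA, with 3 arrays each. The ES cells grew in a medium called 3I, and the fibroblasts in GMEM with 10% serum (FBS). Mouse ES cells of strain C57/BL6, also on 3 arrays, grew in GMEM with 10% serum and LIF and were separated from their feeder cells before extraction. For the rat ES cultures the labels make no statement about feeder cells. Cell type and medium differed together between the rat groups and cannot be told apart. No label states that a group's arrays were made from separate cultures, so each p-value measures only how these arrays vary, possibly for technical reasons.

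Histones package DNA: an octamer of the core histones H2A, H2B, H3 and H4 forms the nucleosome, and the linker histone H1 binds where DNA enters and leaves it. Most histone protein is made in S phase from replication-dependent genes, which lie in clusters and whose messages end in a stem-loop instead of a poly(A) tail. Replacement variants are made throughout the cell cycle from single genes with ordinary polyadenylated messages, and a further set of variants is known mainly from the germ line. By this division the rat members held 18 replication-dependent genes, 6 replacement variants and 8 germ line variants. The sources used here do not give the priming of the labelling reaction, a step that decides how well messages without a poly(A) tail are measured.

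Histone messages were higher in rat ES cells than in rat fibroblasts. Of the 32 rat members, 18 were called higher, meaning at least 2-fold at a limma adjusted p under 0.05, and 0 were called lower. Over all 14506 genes tested, 10.6% were called higher and 10.1% lower. The median log2 difference was 1.21 over the members and -0.00069 over all genes. Without a fold threshold, 27 members were higher at the same adjusted p, against 30.9% of all genes, and 0 were lower. Every rat ES array lay above every fibroblast array for 29 members, against 33.2% of all genes. Many members were brightly measured, and bright genes were called higher more often. Of 7253 genes above the median level, 16.7% were called higher, and of the 26 members among them, 18 were. Level here was the mean over all 6 arrays, so a gene could pass through its ES signal alone. H2ac21 did so, with a mean signal of 5.51 in fibroblasts, below the array medians. H1f6 (5.94), H3f4 (6.04) and H2bc1 (6.14) did so too. In fibroblasts their percentiles among all named genes were 44.3, 45.9 and 47.4, and that of H2ac21 was 38.1. All but H3f4 were called higher. The shares among genes above the median level are therefore not separate support. A change in the number of cells making histone messages and a change in message per cell cannot be told apart in RNA from whole cultures.

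**Figure D1:**
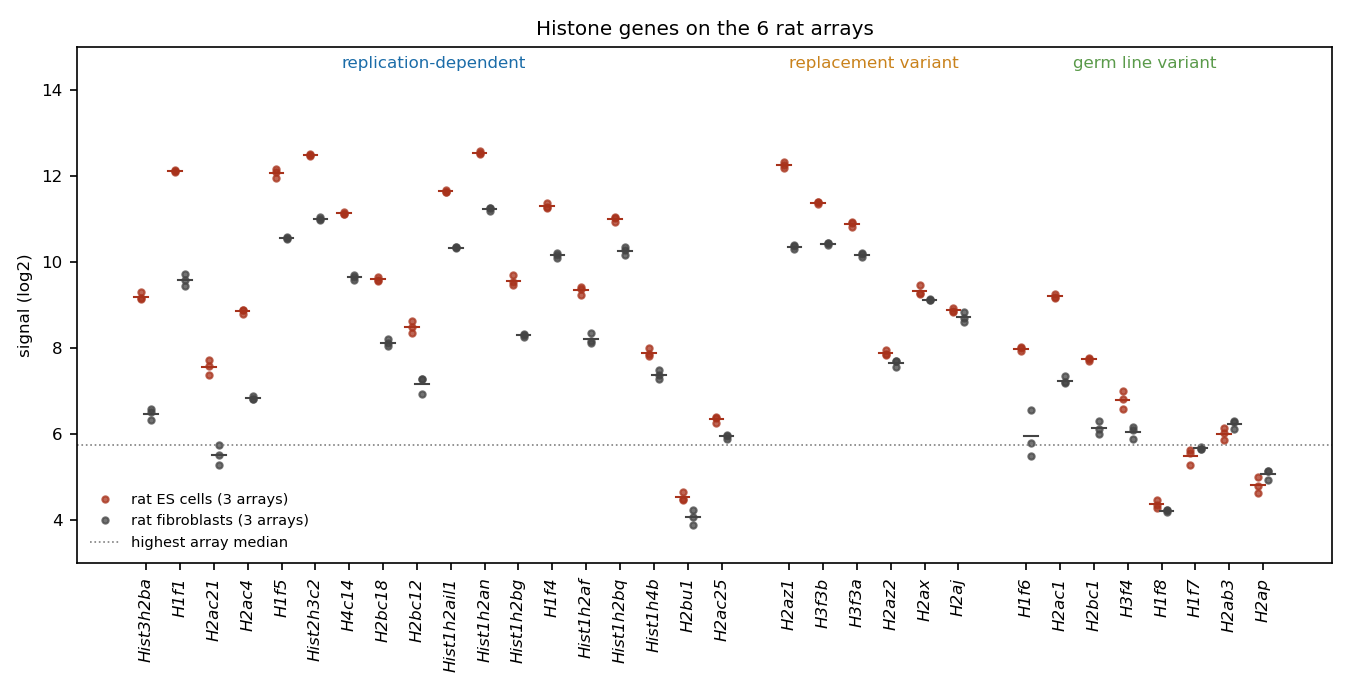
Signal (log2) of each of the 32 rat histone genes on the 3 rat ES arrays and the 3 rat fibroblast arrays, as points with a short line at the mean, ordered within each class by the difference. The dotted line is the highest array median, 5.74, and H2bu1, H1f8, H1f7 and H2ap lie below it in both groups.

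The cultures were checked against their names with markers. All 7 measured ES cell markers were called higher in rat ES cells, with mean levels of 10.1 on each of those arrays and 5.30 to 5.45 on the fibroblast arrays. Of 14 fibroblast markers, 12 were called lower in rat ES cells, where the list's mean level was 6.90 to 7.33, against 10.8 to 10.9 in fibroblasts. The 2 brightest fibroblast markers in rat ES cells were Fn1, at a mean of 12.6, and Col1a1, at 9.71, 10.17 and 10.56. The others had means there from 3.67 (Lum) to 8.98 (Col1a2). Thy1 (5.60), Pdgfra (5.63), S100a4 (4.80), Lum and Dcn (3.83) were under the array medians there, Lum and Dcn in fibroblasts as well. Whether fibroblast-like cells in the ES cultures bear on the histone differences was not tested. Of 7 blood and macrophage markers, 1 was called higher (Laptm5, 3.87) and 1 lower (Cd14, -3.51). Array medians lay between 5.71 and 5.74 in the rat table, and rat replicates correlated at r = 0.994 or more, after rounding, across probe sets. With 3 arrays a group, precision is limited by their number.

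Most calls were of replication-dependent genes: 14 of 18 were called higher, against 10.6% of all genes. Their median log2 difference was 1.32, with a range of 0.40 to 2.72. Every rat ES array lay above every fibroblast array in all 18, against 33.2% of all genes. All 18 were also higher at a limma adjusted p under 0.05, against 30.9% of all genes. Hist3h2ba, an H2B gene, had the largest difference of the members. Its log2 signals were 9.13, 9.30 and 9.15 on the rat ES arrays and 6.59, 6.5 and 6.34 on the fibroblast arrays. Every ES array was thus well above every fibroblast array, 6.58-fold apart on average (log2 2.72 with SE 0.09, adjusted p from limma = 4.27e-08).

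The linker histone genes of the clusters were called higher in 3 of 3 cases, against 10.6% of all genes. H1f1 stood at 12.12, 12.08 and 12.13 in rat ES cells and at 9.44, 9.72 and 9.58 in fibroblasts. This gap, 5.77-fold (log2 2.53 with SE 0.08, adjusted p from limma = 5.05e-08), was many times the spread within either group. H1f5 read 12.16, 12.08 and 11.96 against 10.54, 10.59 and 10.55, a log2 difference of 1.51 (SE 0.07). For H1f4 the signals were 11.27, 11.36 and 11.25 against 10.09, 10.20 and 10.17, a log2 difference of 1.14 (SE 0.07). H1f4 and Hist1h2af (1.14) were the called members nearest to the 2-fold threshold. The 3 linker genes encode closely related proteins that bind linker DNA, and all were bright in fibroblasts as well, where their mean signals ran from 9.58 to 10.6.

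Core H2A genes of the clusters were called higher in 5 of 6 cases, against 10.6% of all genes. H2ac21 read 7.57, 7.71 and 7.38 in rat ES cells and 5.28, 5.51 and 5.74 in fibroblasts (log2 difference 2.05, SE 0.13). Its mean signal in fibroblasts lay below the array medians, so the size of this difference is uncertain. H2ac4 read 8.78, 8.88 and 8.88 against 6.80, 6.81 and 6.89 (2.01, SE 0.07), with no such limit. Hist1h2ail1 differed by 1.31, Hist1h2an by 1.31 and Hist1h2af by 1.14, each with 3 ES arrays above 3 fibroblast arrays. H2ac25 was the sixth, at 6.37, 6.25 and 6.40 against 5.96, 5.88 and 5.98, which is a log2 difference of 0.40 (95% interval 0.23 to 0.56).

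Probe sets of 1 gene did not always give the same size. Hist1h2an had a second, dimmer probe set that differed by 0.39, and Hist1h2ail1 one that differed by 0.73, so neither gene was called with its dimmer probe set. With both probe sets averaged, Hist1h2an differed by 0.85 and was not called either. Cluster genes of a family are near-identical in sequence, and a probe set named for one of them may also read its neighbours. Values of single cluster genes are therefore uncertain as to which gene gave them.

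Core H2B genes of the clusters were called higher in 4 of 6 cases, against 10.6% of all genes. Besides Hist3h2ba, H2bc18 read 9.56, 9.58 and 9.65 in rat ES cells and 8.21, 8.12 and 8.04 in fibroblasts (log2 difference 1.48, SE 0.07). H2bc12 differed by 1.33 (SE 0.12) and Hist1h2bg by 1.27 (SE 0.08). Hist1h2bq, bright in both groups, read 10.93, 11.05 and 11.02 against 10.28, 10.34 and 10.15 and was not called, with a difference of 0.74 (95% interval 0.57 to 0.92). H2bu1 was dim in both groups, at 4.47, 4.5 and 4.65 against 4.24, 3.89 and 4.06, below the array medians. At such signals, little message cannot be told from unresponsive probes.

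H3 and H4 were covered by few single-symbol probe sets. Hist2h3c2, the only replication-dependent H3 gene among the rat members, read 12.48, 12.52 and 12.47 in rat ES cells and 11.04, 10.97 and 10.99 in fibroblasts (log2 1.49 with SE 0.06, adjusted p from limma = 1.65e-07). Its other 2 probe sets carried identical values on every array and differed by 1.45. H4c14 read 11.12, 11.16 and 11.11 against 9.66, 9.59 and 9.69, a log2 difference of 1.48 (SE 0.06). Hist1h4b, at 8.0, 7.87 and 7.81 against 7.27, 7.5 and 7.37, was not called (difference 0.51, 95% interval 0.31 to 0.71). Among neighbouring genes, Hist2h3c2, H4c14 and H2bc18 differed by 1.49, 1.48 and 1.48, and H2ac21, beside H4c14, by 2.05.

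**Figure D2:**
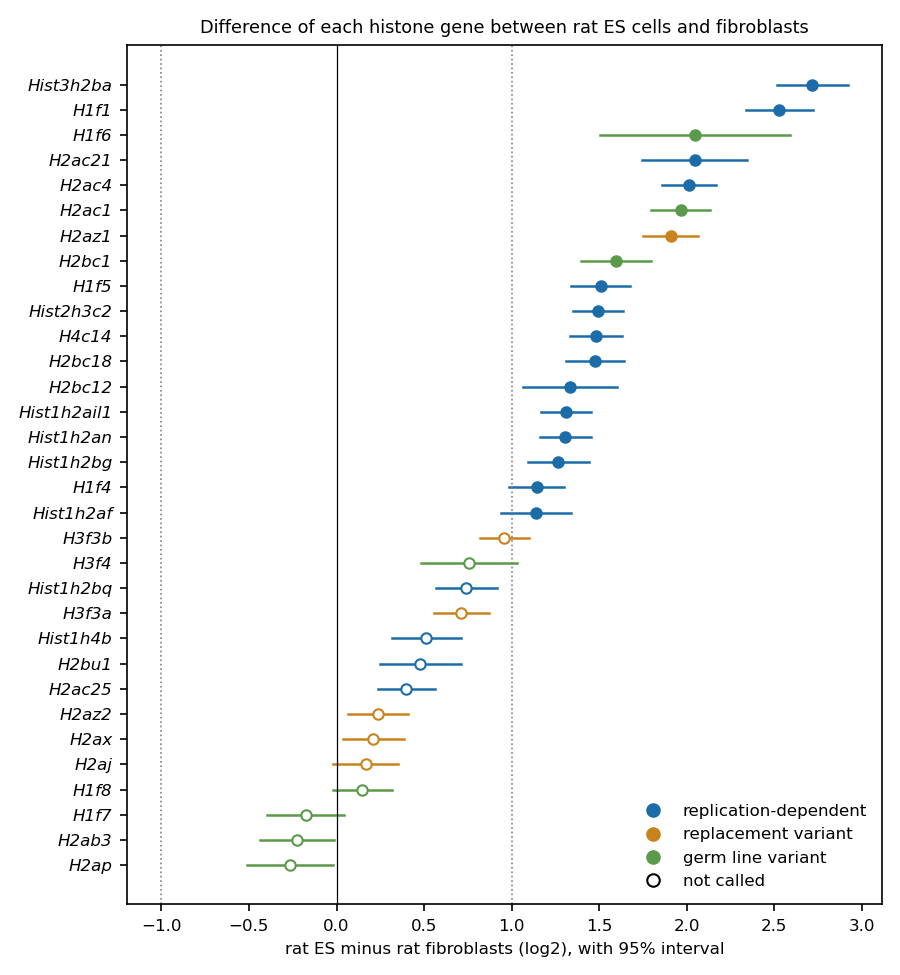
Log2 difference between rat ES cells and rat fibroblasts for the 32 histone genes with its 95% interval from limma, coloured by class. Filled points were called, open points were not, and the dotted lines mark a 2-fold difference. The 18 called members all lie to the right, from 1.14 to 2.72.

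The replacement variants were bright in both groups, and 1 of 6 was called. That share is near the 10.6% of all genes and 16.7% of genes above the median level called higher. H2az1 encodes H2A.Z, a variant found at promoters and regulatory elements. It read 12.32, 12.26 and 12.19 in rat ES cells and 10.30, 10.37 and 10.39 in fibroblasts, or 3.75-fold more (log2 1.91 with SE 0.07, adjusted p from limma = 7.13e-08). Its second probe set differed by 1.62. H2az2 encodes the other H2A.Z protein and read 7.95, 7.85 and 7.84 against 7.69, 7.69 and 7.55. That difference of 0.24 (95% interval 0.07 to 0.41, limma adjusted p = 0.0232) was far under 2-fold.

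Both genes of the H3 replacement variant, which is deposited outside S phase at active genes and elsewhere, were higher by less than 2-fold. H3f3b read 11.36, 11.39 and 11.38 in rat ES cells and 10.39, 10.43 and 10.43 in fibroblasts. Its log2 difference of 0.96 (SE 0.06, limma adjusted p = 1.97e-06) was the nearest to the threshold among the members not called. H3f3a differed by 0.71 (SE 0.07), and its 4 probe sets ranged from 0.71 to 0.73. Several rat H3f3a pseudogenes are listed in RefSeq, and these probe sets may read them too.

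H2ax, whose product is phosphorylated around DNA breaks, read 9.26, 9.28 and 9.47 against 9.12, 9.12 and 9.14. The groups did not overlap, but the difference was 0.21 (95% interval 0.04 to 0.39, limma adjusted p = 0.0435). H2aj, another H2A variant, differed by 0.17 (95% interval -0.02 to 0.35, limma adjusted p = 0.115).

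Of the 8 germ line variants, 3 were called higher and 0 lower, against 10.6% and 10.1% of all genes. H2ac1 and H2bc1 encode the testis forms of H2A and H2B and are neighbours. H2ac1 read 9.15, 9.26 and 9.19 in rat ES cells and 7.20, 7.34 and 7.17 in fibroblasts, or 3.90-fold more (log2 1.96 with SE 0.07, adjusted p from limma = 8.94e-08). H2bc1 read 7.70, 7.76 and 7.75 against 6.01, 6.30 and 6.12, or 3.02-fold more (log2 1.59 with SE 0.09). In both genes all 3 ES arrays lay above all 3 fibroblast arrays by far more than the spread within a group.

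H1f6, the testis linker histone, read 7.99, 7.94 and 8.03 in rat ES cells and 6.56, 5.78 and 5.48 in fibroblasts (log2 2.05 with SE 0.24, adjusted p from limma = 8.29e-05). Fibroblast array 1 stood above the other two here, and the gene was called with each array left out. H3f4, a testis H3 gene, read 7.0, 6.58 and 6.82 against 6.15, 6.09 and 5.88 and was not called (difference 0.76, 95% interval 0.48 to 1.03). The spermatid linker gene H1f7 (-0.18, limma adjusted p = 0.16), the oocyte linker gene H1f8 (0.15, adjusted p = 0.123) and the X-linked H2ab3 (-0.23, adjusted p = 0.0696) and H2ap (-0.27, adjusted p = 0.064) did not pass the test. In both groups the signals of H1f7, H1f8 and H2ap were also under the array medians. For H1f7 every rat ES array read below every fibroblast array, and for H2ab3 and H2ap the groups overlapped.

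Germ cell markers moved in part as well. Of 7 measured, 3 were called higher in rat ES cells, Ddx4 (2.47), Sycp3 (1.19) and Dazl (1.06), and 0 lower. Over all genes, 10.6% were called higher. In both groups 6 of the 7 markers were under the array medians. The mean level of the list was 4.83 to 5.01 on the rat ES arrays and 4.06 to 4.15 on the fibroblast arrays. Their part in the differences of H2ac1, H2bc1 and H1f6 was not tested.

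The order of genes in RefSeq (assembly GRCr8) was used to see which members neighbour each other. By a rule chosen after the values were seen, members no more than 40 entries apart formed 5 groups, with 22 members in all. In the group from H2ac1 to Hist1h2bg, 9 of 10 members were called higher, with a median difference of 1.31. In that from H2ac21 to H2bc18, 4 of 4 were called, between 1.48 and 2.05. In the group from H1f5 to H2ac4, 2 of 2 were called, and in that from Hist1h4b to H2bc12, 1 of 2. The fifth group was mixed: Hist3h2ba, with its difference of 2.72, was followed by H2bu1 (0.48), H2ac25 (0.40) and H3f4 (0.76), and only Hist3h2ba was called. Its 95% interval, 2.52 to 2.92, lay clear of those of its neighbours, which reached 0.71, 0.56 and 1.03. Outside these groups, 1 of 10 members was called, H2az1, a share near the 10.6% of all genes called higher. All 18 replication-dependent members lay in the groups, and the 10 outside were all replacement or germ line variants. Grouping and class therefore cannot be told apart for the replication-dependent genes and replacement variants. The germ line variants were split. H2ac1 (1.96), H2bc1 (1.59), H1f6 (2.05) and H3f4 (0.76) lay in the groups. H1f7 (-0.18), H1f8 (0.15), H2ab3 (-0.23) and H2ap (-0.27) lay outside, and of these H1f7, H1f8 and H2ap were dim in both cell types. Whether grouping bears on the differences was not tested.

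**Figure D3:**
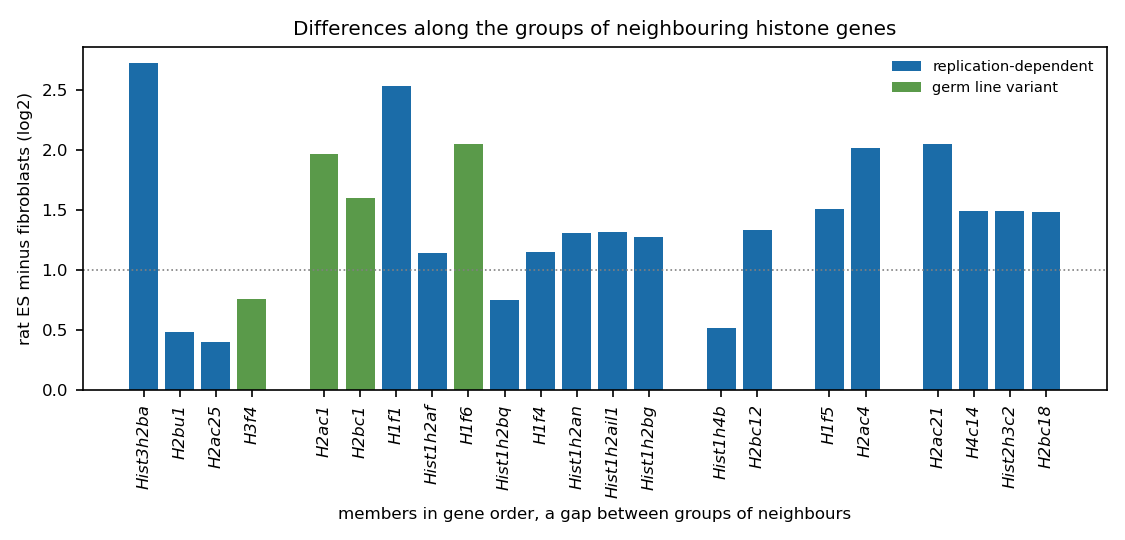
Log2 difference between rat ES cells and fibroblasts (bars) of the 22 members with a neighbouring member, in gene order, with a gap between groups and no distances drawn. The dotted line marks 2-fold, and the group at the left holds the highest bar, Hist3h2ba at 2.72, beside 3 bars between 0.40 and 0.76.

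Promoters of the members were read from RefSeq windows of 300 bases (GRCr8), 250 before and 50 after the annotated gene start, which were given for 31 of the 32. The octamer motif ATTTGCAT, searched on both strands (ATGCAAAT on the other), is known as the site of POU factors in H2B promoters. It was found in 10 of 31 member promoters (32.3%) and in 1.78% of all 33469 promoters. By family it was in 5 of 7 H2B and 4 of 13 H2A promoters, in 1 of 4 H3 promoters (H3f3b), and in 0 of 6 H1 promoters. Because H2A and H2B genes often lie head to head, the 11 matches were 9 distinct sites. The site between H2ac1 and H2bc1, at octamer bases 41599788 to 41599795 of chromosome 17, was in both windows, and so was the one between H2ac25 and H2bu1.

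Windows with 20 bases on each side of the octamer, which is in capitals, show how much of the surroundings the genes share. They are written 5′ to 3′ on the strand of each gene. H2ac1 (chr17:41599768-41599815, minus strand) and H2bc1 (same bases, plus strand) are 1 site read both ways. H2bc18 lies at chr2:186527129-186527176 (plus), H2bc12 at chr17:47181961-47182008 (minus), Hist1h2bq at chr17:41869377-41869424 (minus), H2bu1 at chr10:44233099-44233146 (minus), Hist1h2af at chr17:41807773-41807820 (minus) and H3f3b at chr10:101757679-101757726 (minus).
H2ac1: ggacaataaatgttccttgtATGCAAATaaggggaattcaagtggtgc
H2bc1: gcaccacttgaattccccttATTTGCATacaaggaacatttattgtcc
H2bc18: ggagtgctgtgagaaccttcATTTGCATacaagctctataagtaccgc
H2bc12: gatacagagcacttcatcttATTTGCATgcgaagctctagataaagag
Hist1h2bq: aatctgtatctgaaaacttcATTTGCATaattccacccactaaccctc
H2bu1: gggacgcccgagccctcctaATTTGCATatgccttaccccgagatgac
Hist1h2af: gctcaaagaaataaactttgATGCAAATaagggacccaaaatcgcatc
H3f3b: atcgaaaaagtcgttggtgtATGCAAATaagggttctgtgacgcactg

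In the 5 H2B genes, all printed here, the motif read forward, with its first base 48 bases before the gene start in H2bc18 and H2bc12, 61 in H2bu1, 63 in Hist1h2bq and 124 in H2bc1. In the H2A genes it read in reverse. The 10 members with the octamer had a median log2 difference of 1.22 (6 called higher), and the 21 without it 1.14 (11 called). Hist3h2ba and H1f1, with the 2 largest differences, were among those without it in this window. The pair H2ac25 and H2bu1, with 1 shared octamer, differed by 0.40 and 0.48, while H2ac1 and H2bc1, with another, differed by 1.96 and 1.59.

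The CCAAT box, searched as CCAAT on both strands, was in 29 of 31 member promoters, including all 20 of H2A and H2B, against 37.5% of all promoters. TATAAA, also on both strands, was in 15 of 31, against 14.2% of all promoters. Members with TATAAA had a median log2 difference of 1.51 (12 of 15 called higher), and those without it 0.50 (5 of 16). A match of letters is not evidence of binding, and these splits were not tested.

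Genes that act on histones or on their messages were then read from lists. Of 43 measured genes of S phase and DNA replication, 29 were called higher and 0 lower in rat ES cells. Over all genes, 10.6% were called higher. The list's median log2 difference was 1.35. Uhrf1 (2.61), Mcm5 (2.14), of the replicative helicase, and Rrm2 (2.14), of ribonucleotide reductase, led. Rrm2 read a mean of 12.0 in rat ES cells and 9.87 in fibroblasts. Ccne2 (-0.85) and Tk1 (-0.40) were lower by less than 2-fold. Both were among the 14 genes of the list not called. The part of the S phase genes in the histone differences was not tested. The share of cells in S phase was not measured here.

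Histone message synthesis and processing was represented by 18 measured genes, of which 3 were called higher and 0 lower; their median was 0.60. That share is near the background of 10.6% of all genes and 16.7% of genes above the median level. Pou2f1, whose product binds the octamer, read a mean of 9.08 in rat ES cells and 6.54 in fibroblasts (log2 difference 2.55, SE 0.09). Eri1, a nuclease that trims the end of histone messages, differed by 1.55, and the cleavage factor gene Cpsf1 by 1.19. Npat, the coactivator of cluster genes, was just under the threshold at 0.91 (SE 0.07), and Coil at 0.99 and Gon4l at 0.97. Without fibroblast array 2 the count was 5 in place of 3. Lsm11, a component of the particle that cleaves histone messages, was lower by less than 2-fold (-0.82). Slbp, which encodes the stem-loop binding protein, differed by 0.02, but its signals of 4.30 and 4.28 lay below the array medians.

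Histone chaperones and deposition factors were called higher in 11 of 36 measured genes and lower in 0. Over all genes, 10.6% were called higher, and 16.7% of those above the median level. The list's median difference was 0.53, and 8 of its genes were called higher after quantile normalization. Mcm2, 1 of the called genes, was also in the S phase list. Nasp, which carries soluble H3 and H4, read a mean of 9.17 against 7.09 (log2 difference 2.08, SE 0.12). Mms22l, which acts on newly replicated chromatin, differed by 2.00, and Hat1, the enzyme that acetylates new H4, by 1.97. Chaf1b, a subunit of the assembly factor that works behind the replication fork, differed by 1.61 (SE 0.07). Hira, of the complex that deposits the H3 replacement variant, differed by 0.78, and Daxx, of another such complex, by 0.40; neither reached 2-fold.

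The other measured histones, whose names fall outside the naming rule, included the only one called lower. Macroh2a2, an H2A variant with a large extra domain, read a mean of 6.20 in rat ES cells and 8.41 in fibroblasts (log2 difference -2.21, SE 0.08). Macroh2a1, its relative, differed by 0.02, and the centromere histone gene Cenpa by 0.60 (SE 0.08).

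**Figure D4:**
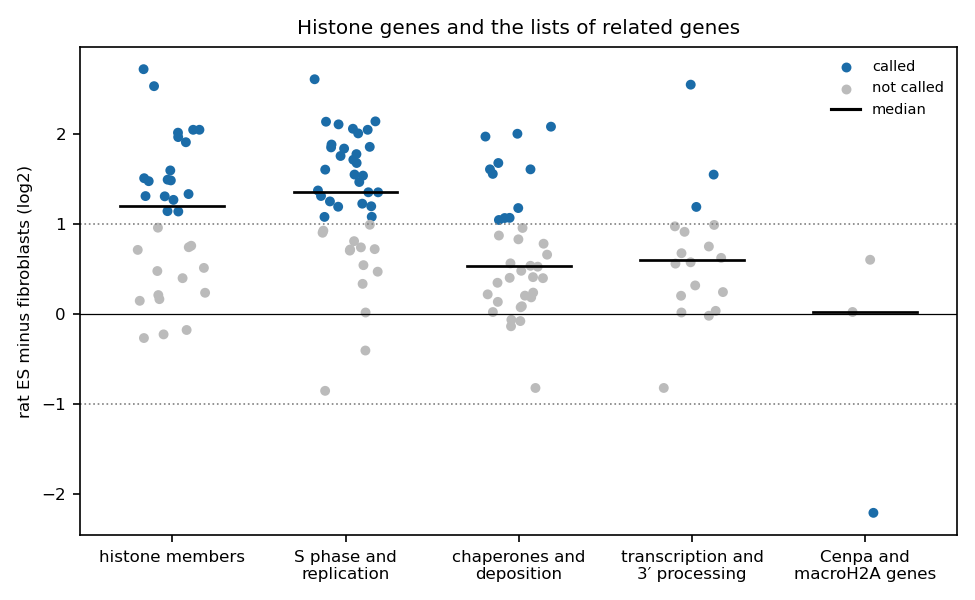
Log2 difference between rat ES cells and fibroblasts for each histone gene and each measured gene of the 4 related lists, with a line at the median. Blue points were called and dotted lines mark 2-fold; medians were 1.21 for histone members, 1.35 for S phase genes, 0.53 for chaperones and 0.60 for message processing, and the lowest point is Macroh2a2.

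Mouse ES cells were measured on another platform, so their levels are given only as percentiles among the 19938 named genes of each array. The 44 mouse members had a median percentile of 66.5; 21 lay above the 75th percentile and 8 below the 25th. The 27 replication-dependent members had a median of 75.8, the 6 replacement variants 90.8 and the 11 germ line variants 41.9. In rat ES cells the corresponding medians over rat members were 92.8, 94.5 and 51.8, and in rat fibroblasts 79.4, 92.7 and 45.1. These medians are over different genes on each platform: 47 mouse probe sets with several symbols, at least 1 of them in the naming pattern, were left out, against 3 in the rat table. The mouse arrays also shared values: 11 of the 44 members, and 15447 of 35557 mouse probe sets, had 1 value on all 3 arrays. No SD over the mouse arrays is therefore given, and their lowest and highest ranks describe these arrays only.

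The highest mouse members were H1f5 (percentile 99.8), H1f1 (99.7), H4c4 (99.5), H2az1 (99.1) and H4c6 (98.9). Not every linker gene ranked high: 3 of 8 mouse H1 genes lay above the 75th percentile, with a family median of 60.7. Among 7 mouse H4 genes, 6 lay above the 75th percentile, and none of the 4 mouse H3 genes did. The lowest members were H3c7 (2.65), the testis gene H2bl1 (9.42), H3f3a (12.7), H2ac8 (13.1) and H2al3 (17.1).

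A total of 16 symbols named members on both platforms, and their median percentile was 86.6 in mouse ES cells, 88.1 in rat ES cells and 74.0 in rat fibroblasts. Equal symbols of cluster genes need not mark the same ancestral gene. H1f1 (99.7 in mouse ES, 99.5 in rat ES, 92.8 in rat fibroblasts), H1f5 (99.8, 99.5 and 97.2), H4c14 (98.8, 98.5 and 93.2) and H2az1 (99.1, 99.6 and 96.5) ranked at the top in both ES cell types. H2ac1 ranked at 88.8 in mouse ES cells and 89.8 in rat ES cells, against 63.7 in rat fibroblasts. The other 2 testis genes called between the rat groups ranked lower in mouse ES than in rat ES cells: H2bc1 at 60.8 against 70.1, and H1f6 at 47.1 against 74.3.

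H3f3a had the widest gap, at 12.7 in mouse ES cells and 98.0 in rat ES cells. The mouse probe set was at 3.08, 3.02 and 3.02, below the array medians, so here too little message cannot be told from unresponsive probes. H2az2 went the other way, at 96.4 in mouse ES cells and 72.5 in rat ES cells. The other wide gaps upward were in H1f7 (by 10.3 percentile points), H1f8 (8.87) and H2ax (7.33), and downward in H1f6 (-27.3), H2ac4 (-10.7), H2bc1 (-9.32) and H2ap (-6.26). Of these, H1f8 and H2ap were below the array medians on both platforms, and H1f7 was in the rat. The gaps of these genes are between dim signals and are uncertain. H1f5, the fifth largest of the upward differences, was only 0.36 points higher in mouse ES cells. Of the 16 symbols, 7 had a higher mean percentile in mouse ES than in rat ES cells and 9 a lower one. Species, strain, culture medium and platform differed together and cannot be told apart in these ranks.

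**Figure D5:**
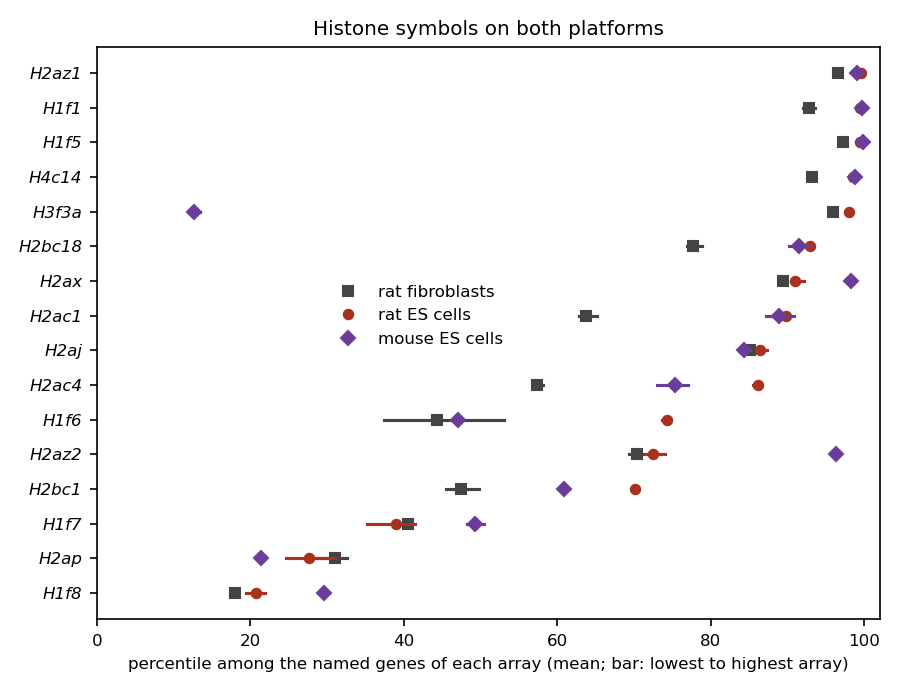
Percentile of the 16 shared histone symbols among the named genes of each array, as the mean over 3 arrays with a bar from the lowest to the highest array. Mouse ES and rat ES cells lie together near the right edge for H1f1, H1f5, H4c14 and H2az1, and far apart for H3f3a (12.7 and 98.0) and H2az2 (96.4 and 72.5).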

How the data were processed

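Each array took the total RNA of 1 sample as labelled single-stranded DNA, per the protocols in the labels. The deposited values are log2 signals by probe set, 29215 on 6 rat arrays and 35557 on 3 mouse arrays; the log2 scale was read from the range of the values, while the authors' background correction, normalization and probe summary were not given in the sources used here. Values were taken without further normalization, and levels were tested only within the rat table. Genes were named from GEO's platform annotation, keeping probe sets with 1 symbol, and for each symbol the probe set with the highest mean. All 32 rat members carried the same symbol under their gene ID in RefSeq (GRCr8), where 76 protein-coding symbols fit the naming pattern.

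The rat comparison used lmFit and eBayes of limma 3.58.1 (R 4.3.3) with group as the only term, on all 14506 genes, with Benjamini-Hochberg adjustment over all genes. In a check on simulated data for this comparison, with 200 of 14506 genes changed, 98% of the changes of 1.5 (log2) and 100% of those of 3 were called, and 0 unchanged genes. Arrays with the same replicate number did not deviate together (r = -0.016, 0.018 and -0.006), which gave no ground for pairing. Members and lists were chosen with earlier results of these data known, and the division into classes by hand from general knowledge. Named are all replacement and germ line variants, the 3 largest and 3 smallest differences of cluster genes per family, and members near the threshold. Also named are the extremes of the mouse percentiles and the leading called genes of each list. Others were added after their values were seen. Of the related lists these were Npat, Coil, Gon4l, Lsm11, Slbp, Ccne2, Tk1, Hira, Daxx, Chaf1b, Cenpa and Macroh2a1. Of the fibroblast markers they were Col1a1, Col1a2, Fn1, Thy1, Pdgfra, S100a4, Lum and Dcn. The remaining cluster genes were added in the same way.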

Additional observations from a re-analysis of the deposited data

How the results depend on the processing

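The count of 18 histone genes called higher ran from 16 to 18 under the other normalizations, filters, probe set rules and eBayes settings (21 of 40 probe sets when each was tested apart), was 18 with the replicate block and with each rat array left out, and was 27 with no fold threshold and 5 at a log2 difference of at least 2; none was called lower. Calls of single members changed only with other probe set rules or fold thresholds, and no called difference changed sign. The 27 were counted in the main fit only, and its weakest passes did not hold throughout. After quantile normalization the limma adjusted p was 0.185 for H2ax and 0.288 for H2az2. It was 0.125 for H2ax without rat ES array 3 and 0.0691 for H2az2 without rat ES array 1. Some settings also gave a limma adjusted p under 0.05 to members that were lower in rat ES cells, by less than 2-fold. For H2ap it was 0.0475 above the 25th percentile of level and 0.0194 without rat ES array 2. For H2ab3 it was 0.0341 without rat ES array 1. The members' median difference of 1.21 became 1.09 after quantile normalization, 1.29 and 1.32 above the 25th percentile and the median of level, 1.08 with averaged and 1.05 with the lowest probe sets. With no fold threshold, 14 processing genes were higher and 1 lower, 28 chaperones higher and 1 lower, 2 S phase genes lower and 1 gene outside the naming rule higher. At a log2 difference of at least 2, the counts called higher were 1, 2 and 7 for processing, chaperone and S phase genes. With an array left out, 3 to 5 processing genes were called. The mouse median percentile of 66.5 was 82.0 when 16 members were ranked among shared symbols only, 71.0 among all probe sets, 67.1 with averaged and 67.5 with the lowest probe sets. Chosen after seeing the data, it was 76.9 over 22 members ranked only among genes with 3 different mouse values.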
